A study of Mus musculus with 2 samples.

Results

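Ttr, Kl, Prlr, Clic6, Folr1, Kcne2 and Otx2 are 7 genes with high expression in the epithelium of the choroid plexus, and they are described here in 2 RNA-sequencing libraries of mouse cerebral cortex. They were found by gene symbol and are 7 of the 55536 annotated genes. They were chosen by measured values of these 2 libraries (the log2 difference between the libraries, above all that of Ttr), so their differences are given as a description, with no test. The libraries were made from total RNA, after ribosomal RNA reduction, of the left cerebral cortex of 2 female adult mice, 8 to 10 months old, of the B6CASTF1/J strain, a first-generation hybrid of C57BL/6J and CAST/EiJ. Each library started from 300 ng of RNA with ERCC spike-ins, synthetic RNAs added in known amounts. Both animals belong to 1 group, with no treatment and no contrast, and they are named by their replicate numbers, 1 and 2. The labels call them animal 1 (replicate 1) and animal 5 (replicate 2) yet list a single donor for both, so only the numbers make them separate animals.

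The choroid plexus is a folded sheet of epithelium over leaky capillaries that hangs in the ventricles of the brain. Its epithelial cells secrete cerebrospinal fluid, seal the border between blood and that fluid with tight junctions, and move ions, vitamins and hormones across it. Transthyretin RNA is among the most abundant messages of these cells, while the cortex itself holds no choroid plexus and lies beside the ventricle that does.

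Expected counts, the authors' estimated reads per gene, summed to 28327434 in replicate 1 and 30234441 in replicate 2, with 75029 and 68108 of these on spike-ins. Cortical markers were high in both libraries: the neuronal list (5 genes) summed to 2059 and 2204 TPM (a level scaled for transcript length and library depth), and the astrocyte list (5 genes) to 1437 and 1430 TPM. A log2 difference is replicate 2 minus replicate 1 on TMM-scaled log2 counts (CPM, counts scaled by library size). Its median was -0.02 over the 14127 genes whose mean count reached 50, and the central 95% of those genes lay between -0.57 and 0.69. Scaling on the spike-ins in place of TMM moved the median of all such genes by 0.28. Since each animal gave 1 library, no difference here has a replicate check, and the 95% intervals (exact binomial) cover counting error of reads only. Reads carried no molecular identifiers, so copies of 1 molecule could be counted more than once and the intervals may be too narrow. In bulk tissue, fewer cells of a type and less RNA per cell cannot be told apart.

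The 7 genes were unequal in level and mostly lower in replicate 2. Ttr made up 93.8% of their summed TPM in replicate 1 and 89.4% in replicate 2, and the other 6 genes together came to 11.3 and 6.59 TPM. Ttr, Kl and Clic6 reached 1 TPM or more in both libraries, which is 3 of 7 genes beside 58.9% of the 22028 protein-coding genes. Counts per library, scaled, were lower in replicate 2 for 6 genes and higher for Otx2. Of the 4 genes whose mean count reached 50 (Ttr, Kl, Prlr and Clic6), Ttr and Prlr were over 2-fold lower in replicate 2, beside 0.63% of all genes at that minimum. With the minimum at 10 counts all 7 genes entered, and 4 were over 2-fold lower beside 1.64% of genes, while 1 was over 2-fold higher beside 3.09%. The choice of the genes used this same difference, so nothing is read from these shares.

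**Figure D1:**
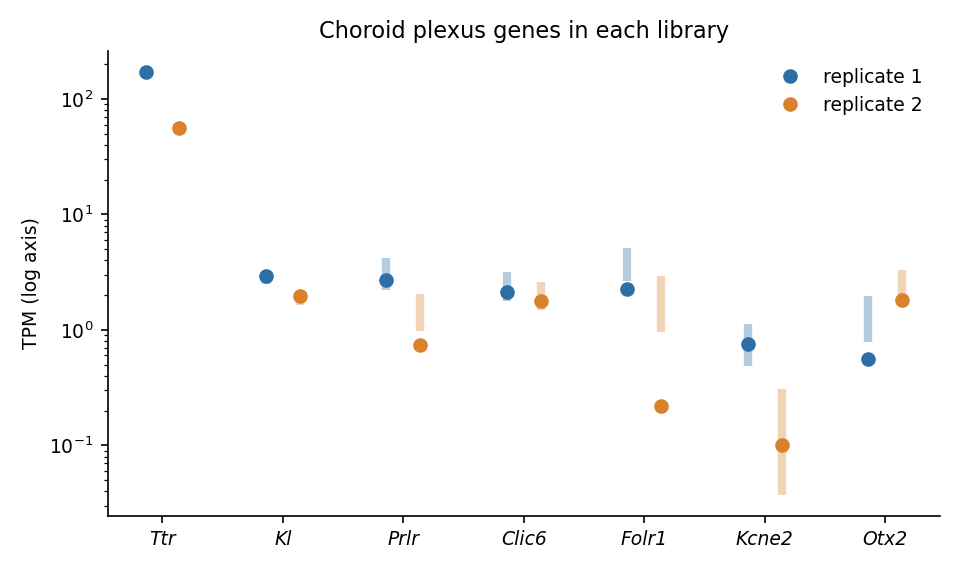
Level of each of the 7 genes in TPM (log axis) in replicate 1 (blue) and replicate 2 (orange); points are the deposited TPM and pale bars the deposited credibility bounds. Ttr lies at 172 and 55.7 TPM, far above the other 6 genes, and Otx2 alone is higher in replicate 2.

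Ttr (ENSMUSG00000061808.4, mm10 chr18:20665280-20674321, plus strand) encodes transthyretin, the secreted carrier of thyroxine and, with its binding protein, of retinol. Its count was 3384 in replicate 1 and 1141 in replicate 2, and its level 172 and 55.7 TPM, with a mean of 114 ± 82.0 TPM (SD, n = 2). Replicate 1 was the high library, and the deposited credibility bounds did not overlap (160 to 171 TPM against 50.6 to 56.8 TPM). The log2 difference was -1.70 (95% counting interval -1.80 to -1.61), a 3.26-fold lower value in replicate 2. Only 17 of the 14127 genes had a lower log2 difference, as Ttr was 18th from the bottom. Among protein-coding genes by TPM, Ttr ranked 445th in replicate 1 and 2096th in replicate 2. A single annotated transcript, Ttr-201, held all of the gene's counts in both transcript tables. With spike-in scaling the log2 difference was -1.43, which was still over 2-fold.

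The list of thyroid hormone and retinol genes was mixed in direction. Of its 13 genes at the minimum of 50 counts, 6 were lower and 7 higher in replicate 2 (4 lower under spike-in scaling); the median log2 difference was 0.03, with none over 2-fold. Thra, the main thyroid hormone receptor of neurons, stood at 351 and 356 TPM. Dio2, the deiodinase that makes active thyroid hormone, had 3044 and 1993 counts and the lowest log2 difference of the list at that minimum, -0.75. Below it, with the minimum at 10 counts, 1 gene was over 2-fold lower: Dio3, the deiodinase that inactivates thyroid hormone, with 61 and 18 counts and a log2 difference of -1.84 (-2.74 to -1.12), a change as large as that of Ttr. Rxra, a partner receptor for thyroid hormone and retinoid receptors, had 1172 and 976 counts.

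Kl (ENSMUSG00000058488.7, chr5:150952607-150993817, plus strand) encodes Klotho, the coreceptor that lets FGF receptors bind FGF23 and that is also shed into cerebrospinal fluid. It had 266 counts in replicate 1 and 185 in replicate 2, at 2.91 and 1.95 TPM (2.43 ± 0.68, SD, n = 2). The log2 difference was -0.66 (-0.94 to -0.38), just outside the central 95% of genes, and the credibility bounds did not overlap. With spike-in scaling it was -0.38. The coding transcript Kl-201 held 97.1% and 99.4% of the gene's TPM in the first transcript table, and 91.9% and 90.9% in the second, with the rest on Kl-202, annotated as a retained intron.

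Receptors and shedding proteases of the Klotho pathway were mostly measured above Kl itself, except Fgfr4 at 0.10 TPM in each library. Fgfr3 stood at 57.4 and 48.8 TPM, Fgfr2 at 32.8 and 34.6 TPM, and Adam10, a protease that can release Klotho from the membrane, at 35.8 and 38.0 TPM. All 6 listed genes at the minimum of 50 counts had log2 differences below 0, with a median of -0.18 and none over 2-fold, but 5 of 6 lay below 0 with total-count or DESeq2 scaling and 1 of 6 with spike-in scaling. Fgfr1 had the lowest, -0.41, from 1660 and 1375 counts.

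Prlr (ENSMUSG00000005268.20, chr15:10177238-10349180, plus strand) encodes the prolactin receptor, through which the choroid plexus can take up prolactin from blood. It had 194 counts in replicate 1 and 94 in replicate 2, at 2.70 and 0.74 TPM (1.72 ± 1.39, SD, n = 2). Replicate 1 was again the high library. The log2 difference was -1.17 (-1.55 to -0.82), or 2.27-fold lower by counts, and -0.90 with spike-in scaling, which is under 2-fold. By TPM the fold was 3.65, since Prlr-203 and Prlr-208, short transcripts of 564 and 669 nt, held 15.6 counts but 58.4% of the gene's TPM in replicate 1 and were listed at 0 in replicate 2. The long coding transcript Prlr-202 (9900 nt) held 168 and 74.1 of the counts, and Prlr-201, annotated as a retained intron, 8.65 and 18.0.

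The hormones of the receptor's family differed in the other direction. Prl, encoding prolactin, had 0 counts in replicate 1 and 172 in replicate 2, and Gh, encoding growth hormone, 0 and 114; against a floor of 3 counts these were at least 52.1-fold and at least 34.6-fold higher in replicate 2. Both hormones are made in the pituitary gland, and a list of 13 pituitary genes, written after these values were seen, summed to 1.86 and 24.5 TPM. That list holds Prl (0 and 11.6 TPM) and Gh (0 and 7.93 TPM) themselves, which made up most of its sum in replicate 2. Pomc, the precursor of ACTH, had 19 and 68 counts, while Pou1f1, the factor that defines prolactin and growth hormone cells, had 1 and 0, and 7 listed genes in replicate 1 and 3 in replicate 2 were at 0. Downstream signalling genes were closer between the libraries: Jak2 had 1766 and 1443 counts, Stat3 1118 and 1208, and Stat5b 953 and 1098. Of the 10 listed hormone and signalling genes at the minimum of 50 counts, 3 were lower and 7 higher, with a median of 0.15. With spike-in scaling 1 was lower, and with total counts 2 were. The 2 past 2-fold at that minimum were Prl and Gh. At a minimum of 10 counts Prl and Gh were still the only 2 over 2-fold higher, beside 3.09% of all genes. With the minimum at 10 counts Socs1, a feedback inhibitor of this signalling, was over 2-fold lower, with 25 and 12 counts and a log2 difference of -1.13 (-2.32 to -0.15), and -0.87 with spike-in scaling.

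**Figure D2:**
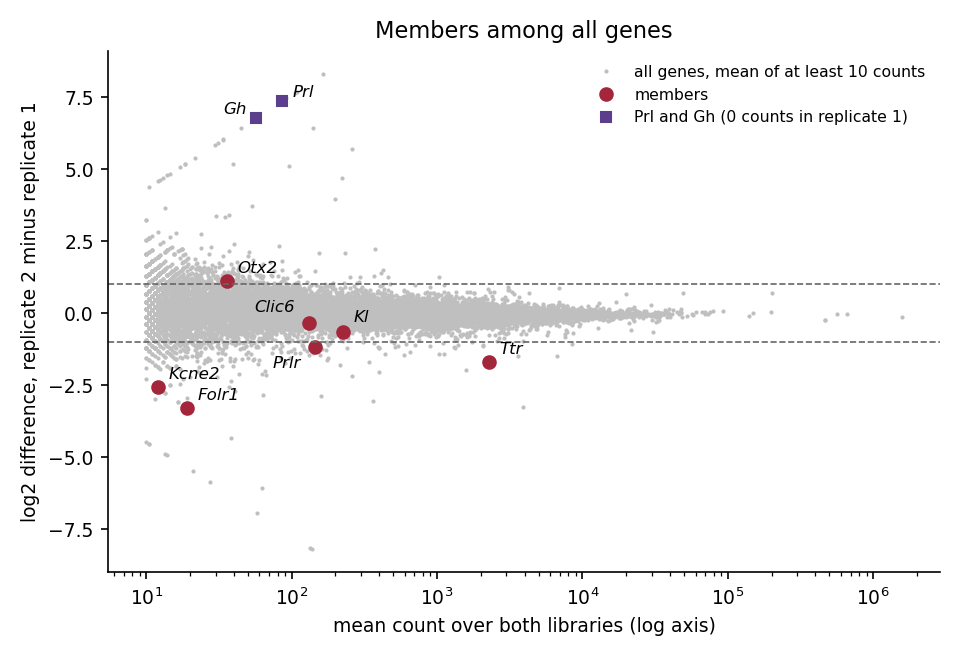
Log2 difference (replicate 2 minus replicate 1) against the mean count of both libraries (log axis) for all genes whose mean count reached 10 (grey), the 7 choroid plexus genes (red) and Prl and Gh (violet squares); dashed lines mark 2-fold. Ttr at -1.70 lies below nearly all genes of like count, whereas Clic6 and Kl lie within or close to the grey band and Prl and Gh lie near the top.

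Folr1 (ENSMUSG00000001827.12, chr7:101858331-101870788, minus strand) encodes folate receptor alpha, which carries folate through choroid plexus epithelium into cerebrospinal fluid. It had 35 counts in replicate 1 and 3 in replicate 2, at 2.24 and 0.22 TPM. The replicate 2 value stood at the floor of 3 counts, so the ratio of 0.0780 has a wide counting interval, 0.0153 to 0.247. The log2 difference was -3.29. Folr1 overlaps Anapc15 on the opposite strand, a subunit of the anaphase-promoting complex with 376 and 412 counts. The sources used here do not say if reads were counted by strand. All 35 counts of replicate 1 were placed on Folr1-201 in the first table and 28.8 of 37 in the second, while in replicate 2 that transcript was listed at 0 in both. Other genes of folate uptake and use did not share this difference: of 10 at the minimum, 3 were lower and 7 higher (5 lower in the second table, 2 under spike-in scaling), the median was 0.02 and none was over 2-fold. Slc19a1, the reduced folate carrier, had 269 and 385 counts but 10.7 and 10.2 TPM, so it was higher by counts only. Aldh1l1, an astrocyte enzyme of folate metabolism, had 1102 and 1077 counts.

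Clic6 (ENSMUSG00000022949.9, chr16:92485736-92541243, plus strand) encodes a chloride intracellular channel protein found in secretory epithelia. It had 140 counts in replicate 1 and 122 in replicate 2, at 2.11 and 1.77 TPM (1.94 ± 0.24, SD, n = 2). The log2 difference of -0.33 had a counting interval of -0.70 to 0.03, which includes no difference, and the credibility bounds of the libraries overlapped. The transcript Clic6-201 held all counts in the first table. Of the other channel genes of its family, Clic4 had 1450 and 1698 counts, Clic1 95 and 133, and Clic5 270 and 265. Of these 3, only Clic5 was lower, and with spike-in scaling none was.

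Kcne2 (ENSMUSG00000039672.12, chr16:92292389-92298129, plus strand) encodes a small subunit that changes the gating of KCNQ1 and other potassium channels and pairs with sodium-coupled inositol transport in the choroid plexus. It had 21 counts in replicate 1 and 3 in replicate 2, at 0.76 and 0.10 TPM. As for Folr1, the low library stood at the floor, and the ratio of 0.130 had a counting interval of 0.0248 to 0.435. The first table placed all 21 counts of replicate 1 on Kcne2-202 and all 3 of replicate 2 on Kcne2-201, whose start lies 3227 bases upstream. The second table placed the counts of both libraries on Kcne2-202, so the apparent switch of start holds in 1 table only. Slc5a3, the sodium-coupled inositol transporter, had 3336 and 1871 counts, with a log2 difference of -0.97 (-1.05 to -0.89). By TPM it differed more, at 24.2 and 9.18, which is over 2-fold, and its credibility bounds did not overlap. Of the 6 listed subunits and partners at the minimum, 5 were lower (2 with spike-in scaling) and none was over 2-fold by counts. With the minimum at 10 counts Kcnq1, the partner channel named above, was over 2-fold lower, with 21 and 10 counts and a log2 difference of -1.13 (-2.46 to -0.06), and -0.87 with spike-in scaling. By TPM Kcnq1 was close between the libraries, at 0.63 and 0.54. Its credibility bounds overlapped, and each TPM lay outside its own bounds, so the 2-fold difference holds for counts only.

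Kcne2 and Clic6 lie on the same strand with 187607 bases between the end of the first and the start of the second. Of the 8 genes annotated between them, Smim11 had 93 and 70 counts and Rcan1, a calcineurin regulator, 1157 and 988, with log2 differences of -0.54 and -0.36. The other 6, Kcne1 among them, were at 0 in both libraries. Near neighbours were thus counted in both libraries, with smaller differences than that of Kcne2 (-2.58) and about that of Clic6 (-0.33).

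Otx2 (ENSMUSG00000021848.16, chr14:48657677-48673819, minus strand) encodes a homeodomain transcription factor that the choroid plexus needs to form and that its cells also secrete. It had 21 counts in replicate 1 and 51 in replicate 2, at 0.56 and 1.81 TPM (1.19 ± 0.88, SD, n = 2). Replicate 2 was the high library, against the direction of the other 6 genes. The log2 difference was 1.11 (0.38 to 1.95), and 0.82 in the second table, which is under 2-fold. The credibility bounds overlapped, and the TPM of replicate 1 lay below its own bounds of 0.79 to 1.96. Otx1, the related cortical factor, was level, with 119 and 133 counts, and the antisense gene Otx2os1 had 0 counts in both.

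Otx2 counts also differed by transcription start, grouped after the values were seen. The 5 transcripts that start within 20 bases of Otx2-209 held 5.73 counts in replicate 1 and 23.1 in replicate 2. The start of Otx2-201, 2409 bases away, held 12.6 and 15.1, and the remaining starts 2.66 and 12.8. In the second table the Otx2-209 start had 0 and 38.8 counts and the Otx2-201 start 24 and 9.16. Both tables thus gave the Otx2-209 start more counts in replicate 2 than in replicate 1. For the Otx2-201 start the tables differed in direction. At 21 and 51 counts per gene the split between starts rests on few reads. Markers of the pineal gland, another organ that uses Otx2, were near 0 but not equal: Tph1 had 3 and 17 counts, Aanat 0 and 9, and Asmt, the last enzyme of melatonin synthesis, 0 and 0. The list (3 genes) summed to 0.04 and 0.76 TPM, and its part in the Otx2 value was not tested.

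**Figure D3:**
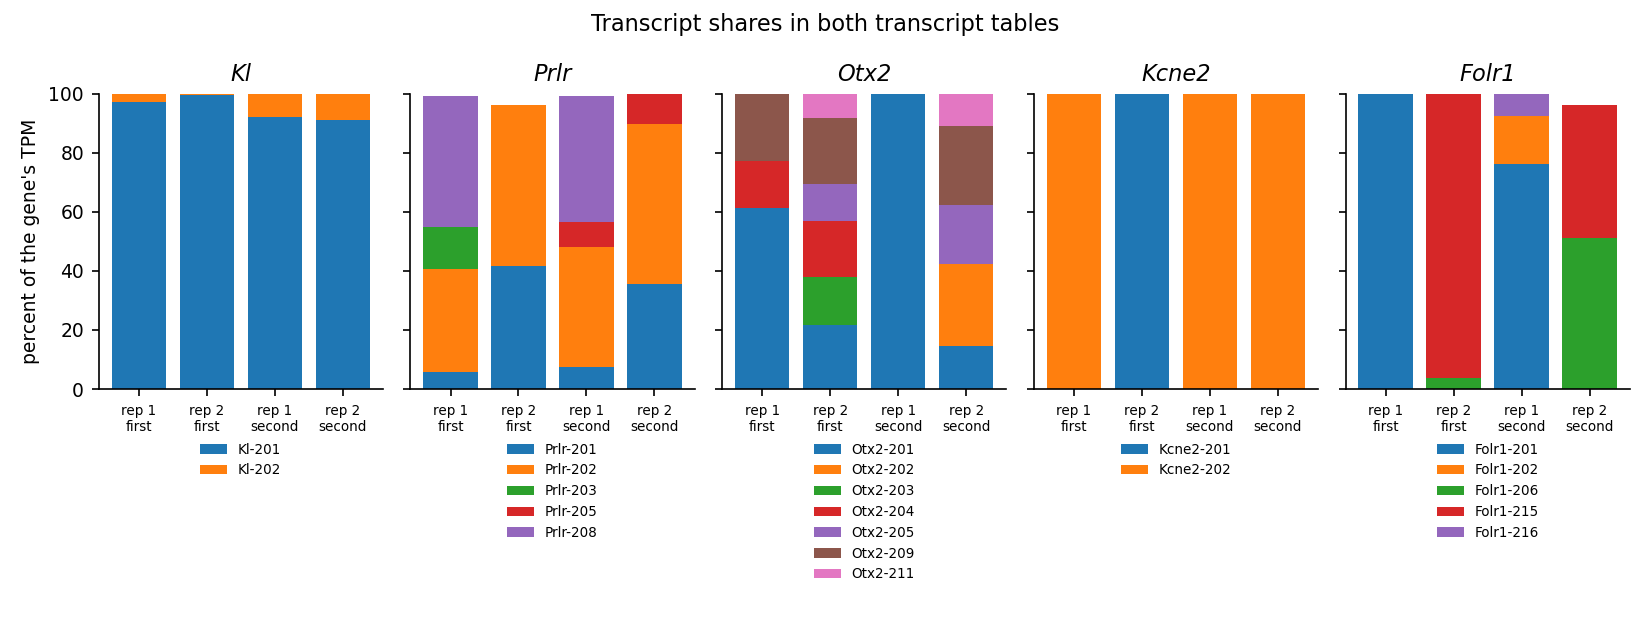
Percent of each gene's TPM per transcript (stacked bars, which can fall short of 100 since transcripts under 5 percent in every bar are left out), for replicates 1 and 2 in the first and second transcript table. Kl is nearly all Kl-201 in every bar. The transcripts that lead for Prlr, Otx2 and Folr1 differ between libraries in both tables, and those of Kcne2 in the first table only.

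Across the 7 genes, the leading transcript was the same in both libraries for 3 genes in the first table and for 4 in the second. Ttr, Kl and Clic6 kept the same one in both tables, and Kcne2 in the second alone. The deposited TPM lay outside its own credibility bounds for 3 genes in replicate 1 (Ttr, Folr1 and Otx2). In replicate 2 it did so for 2 genes (Prlr and Folr1). Some genes of other lists did the same in both libraries, among them Slc17a7, Snap25, Slc1a2 and Aldoc. The share of all genes with such values was not computed. For 4 of the 7 genes (Ttr, Kl, Prlr and Kcne2) the bounds of the libraries did not overlap, beside 16.7% of genes whose mean count reached 10. The choice of the genes used these same values, so nothing is read from that share.

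Promoter windows, the 250 bases before a start, were matched by symbol to RefSeq promoters (GRCm38.p6) for 4 of the 7 genes: Kl, Prlr, Kcne2 and Otx2, with 10 windows in all. The windows of Kcne2 are shown because the transcript tables divided its 2 starts differently. That of Kl is shown because, among these 4 genes, only Kl had 1 leading start throughout. Capitals mark CG dinucleotides, and both this marking and the choice of windows were made after the values and windows were seen. The windows are Kcne2-201 at chr16:92292139-92292388, Kcne2-202 at chr16:92295366-92295615, which lies inside the gene, and Kl-201 at chr5:150952357-150952606, all on the plus strand and with no annotated exon.
Kcne2-201: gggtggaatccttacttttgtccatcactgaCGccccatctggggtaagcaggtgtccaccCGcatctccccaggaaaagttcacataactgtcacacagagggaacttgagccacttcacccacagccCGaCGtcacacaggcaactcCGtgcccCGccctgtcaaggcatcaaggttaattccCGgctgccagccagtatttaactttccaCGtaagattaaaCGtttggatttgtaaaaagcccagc
Kcne2-202: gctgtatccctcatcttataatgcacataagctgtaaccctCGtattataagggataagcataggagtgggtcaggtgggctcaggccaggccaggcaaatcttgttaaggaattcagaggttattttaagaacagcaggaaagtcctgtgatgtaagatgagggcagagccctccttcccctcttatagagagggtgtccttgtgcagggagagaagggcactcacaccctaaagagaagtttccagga
Kl-201: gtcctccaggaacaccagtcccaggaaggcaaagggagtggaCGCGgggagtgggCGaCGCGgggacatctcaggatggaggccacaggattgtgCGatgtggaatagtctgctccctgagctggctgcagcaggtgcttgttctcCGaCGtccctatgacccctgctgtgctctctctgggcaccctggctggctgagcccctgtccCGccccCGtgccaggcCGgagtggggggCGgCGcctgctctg
The upstream window of Kcne2 held 9 CG dinucleotides and the downstream one 1, beside a median of 6 over 32851 windows of the same length; 40.3% of windows held 9 or more and 18.8% held 1 or fewer. The Kl window held 13, and 31.5% of windows held as many or more. The letters TAATCC, the core of the sites that Otx factors bind, were searched on both strands (GGATTA on the other). They were in 1 of the 10 windows, that of Otx2-201, 211 bases before the start, beside 6.25% of all windows.

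Other genes of choroid plexus epithelium, a list of 20 that leaves out the 7, were low in both libraries and mixed in direction. They summed to 28.6 and 23.7 TPM, and at any count 12 were lower and 8 higher in replicate 2 (11 lower with spike-in scaling). The counting interval lay wholly below no difference for 7 of the 20, Tmem72 among them, and wholly above it for 1, Slc13a4. The share of all genes with such intervals was not computed, so nothing is read from the 7 and the 1. Of 8 at the minimum of 50 counts, 5 were lower and 3 higher (4 lower in the second table), with a median of -0.64, and 1 was over 2-fold lower, beside the 0.63% given above for all genes. That gene was Sostdc1, a secreted inhibitor of BMP and Wnt signalling, with 74 and 27 counts and a log2 difference of -1.56 (-2.28 to -0.94). With the minimum at 10 counts 12 genes entered and 4 were over 2-fold lower, beside 1.64% of genes. The further 3 were Slc4a5, a bicarbonate transporter, with 41 and 14 counts, Cldn2, a tight junction protein of leaky epithelia, with 36 and 9, and 1500015O10Rik with 30 and 6.

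Other genes of the list ran from lower to higher in replicate 2. Slc13a4, a sulfate transporter also found in meninges, was higher in replicate 2, with 314 and 518 counts and a log2 difference of 0.58 (0.38 to 0.79). Kcnj13, a potassium channel of the apical membrane, had 77 and 63 counts, and Aqp1, the water channel of that membrane, 32 and 31. Slc29a4, a monoamine transporter, had 201 and 122 counts (-0.85) and Cldn1, a tight junction protein, 65 and 36 (-0.97). Msx1, a homeodomain factor, had 50 and 66. Of these, the libraries stood apart beyond counting error for Slc13a4, Slc29a4 and Cldn1. Tmem72, counted among the lower genes, had 82 and 48 counts in the first table (-0.90) but 2234 and 2555 in the second (0.04), and its TPM in the first table was higher in replicate 2 (0.42 and 0.69), so its direction is uncertain.

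**Figure D4:**
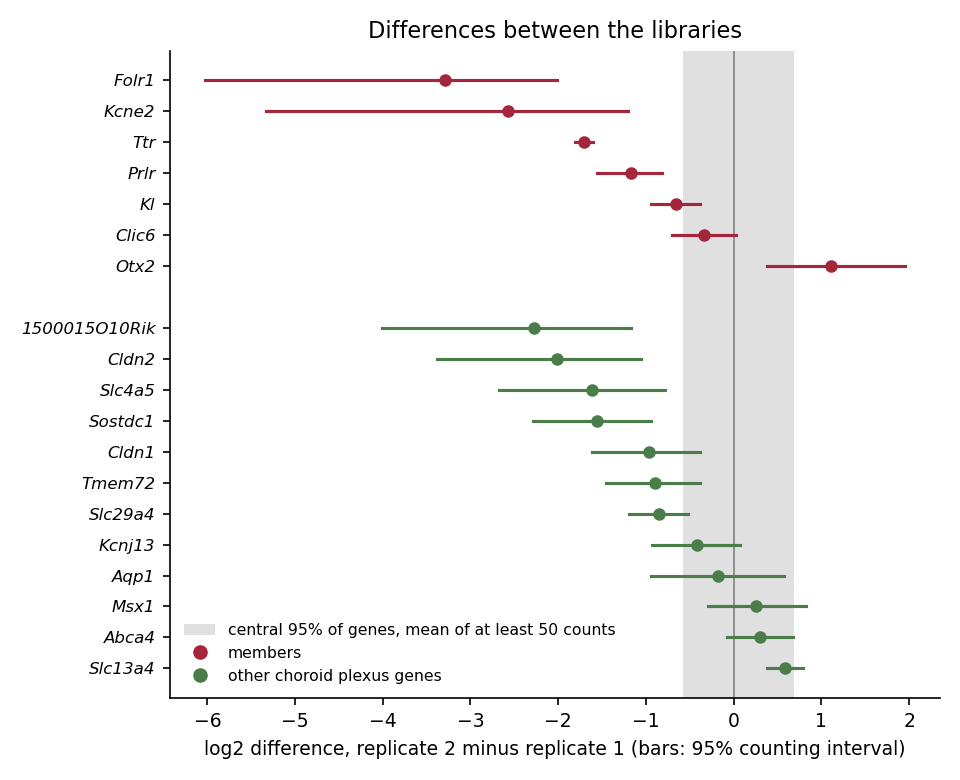
Log2 difference (replicate 2 minus replicate 1, points) with its 95% counting interval (bars) for the 7 genes (red) and the 12 other choroid plexus genes whose mean count reached 10 (green); the grey band is the central 95% of genes whose mean reached 50, -0.57 to 0.69. The points run from -3.29 for Folr1 to 1.11 for Otx2, and Slc13a4, Abca4, Msx1 and Otx2 lie above 0.

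A list of 16 genes that choroid plexus shares with other brain cells did not differ as Ttr did. With 16 of 16 at the minimum, 10 were lower and 6 higher (4 lower with spike-in scaling and 8 in the second table), the median was -0.07 and none was over 2-fold. Enpp2, which makes lysophosphatidic acid and is also an oligodendrocyte gene, stood at 142 and 120 TPM, Igf2 at 38.6 and 47.1 TPM and Igfbp2 at 28.7 and 23.4 TPM. Car12, a carbonic anhydrase, had the lowest log2 difference of the list, -0.45, from 705 and 566 counts.

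Markers of cells next to the choroid plexus were measured beside these genes. Ependymal markers (11 genes) summed to 23.5 TPM in each library, with Foxj1, the factor of motile cilia, at 117 and 100 counts and Rarres2 at 99 and 102. Meningeal fibroblast markers (12 genes) summed to 77.2 and 98.0 TPM, and 9 of 10 at the minimum were higher in replicate 2 (10 of 10 with DESeq2, total-count or spike-in scaling), with Col1a2 at 504 and 679 counts and Slc6a13 at 235 and 315. With the minimum at 10 counts all 12 entered and 1 was over 2-fold higher, beside 3.09% of genes. That gene was Slc47a1, with 11 and 69 counts and a log2 difference of 2.41 (1.58 to 3.58). The meningeal difference thus ran against that of Ttr and with those of Slc13a4 and Otx2, and its part in these values was not tested. Plvap, which marks the fenestrated capillaries of choroid plexus, had 110 and 150 counts, and with Esm1 (3 and 3) summed to 3.29 and 4.30 TPM.

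Summed blood and vessel markers were closer between the libraries than Ttr. Endothelial markers (6 genes) summed to 103 and 102 TPM, but singly they differed beyond counting error in both directions: 4 were lower (2 below 0 with spike-in scaling), and Slco1a4, a transporter of the barrier, was higher, with 652 and 1076 counts (0.59, interval 0.44 to 0.73). Red cell markers (5 genes), mainly haemoglobins, summed to 462 and 538 TPM. The liver also makes transthyretin. Hepatocyte markers (7 genes) summed to 1.08 and 1.87 TPM, with Alb at 0 and 5 counts and 6 of 7 at 0 in replicate 1, and their part in the Ttr values was not tested. Markers of the retinal pigment epithelium, which expresses Ttr and Otx2, summed over 4 genes to 14.3 and 11.7 TPM, nearly all from Rlbp1 (13.4 and 10.4 TPM), a gene also found in glia. Its defining markers Rpe65 and Tyr had 25 and 36 counts and 2 and 4 counts.

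**Figure D5:**
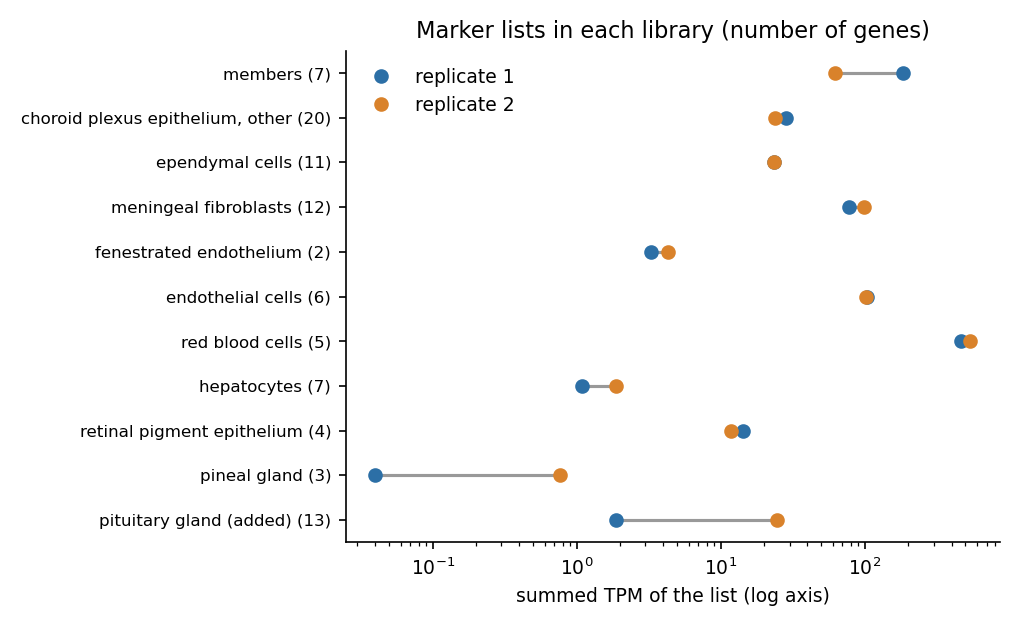
Summed TPM (log axis) of each marker list in replicate 1 (blue) and replicate 2 (orange), with the number of genes in parentheses. The pituitary list was added after Prl and Gh were seen and holds both. The 7 genes ("members") sum to 183 and 62.3 TPM, ependymal and endothelial sums coincide, and the pineal and pituitary sums are the ones with the widest gaps upward.

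Ttr was set beside all 10844 genes whose mean count reached 200 to find those with the closest log2 difference over the 2 libraries. The 5 closest were Dusp4, a phosphatase of MAP kinases, with 511 and 172 counts, Sdf2l1 and Hspa5, chaperones of the endoplasmic reticulum, with 326 and 102 and with 9511 and 3777 counts, and Egr1 and Nr4a1, activity-induced transcription factors, with 5208 and 2046 and with 2477 and 698 counts. Their gaps to Ttr in log2 difference ran from 0.0027 for Dusp4 to 0.26 for Nr4a1. None of them is in the choroid plexus lists used here, and with 2 libraries this likeness compares 1 difference per gene.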

How the data were processed

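Ribosome-reduced total RNA of 2 cortex libraries, 1 per animal, was analysed from the deposited tables. Per the labels and the readme text deposited with them, reads were assigned on mm10 with GENCODE M21; the aligner and the quantifiers, with versions, were not given in the sources used here. Expected counts are the authors' deposited estimated counts per gene and transcript, not normalized (first table, RSEM layout). A second deposited transcript table (kallisto layout) holds estimated counts in the same way. TPM values were deposited, scaled by the authors over all features. The percent of a gene's TPM per transcript is given per the file headers; for the second table it was recomputed from TPM. Credibility bounds are deposited scores whose level is not stated.

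The 7 genes, their lists and these comparisons were chosen with earlier results of these data known. Counts were rounded and scaled with TMM in edgeR 4.0.16 (R 4.3.3), over genes only, and turned into log2 CPM with a prior count of 1. Counting intervals are exact binomial (Clopper-Pearson, 95%) intervals of the ratio, scaled by TMM, from scipy 1.17.1; the floor is 3 counts. No test was made, since 1 group of 2 libraries has no contrast; the difference script was tested on simulated data. Genes named besides the 7 are, per list, up to 4 with the highest TPM and 2 with the largest difference at a mean of at least 50 counts, plus the 5 nearest to Ttr at a mean of at least 200. Slc4a5, Cldn2, Dio3, Kcnq1, Socs1, Slc47a1, Fgfr4, 1500015O10Rik, Aqp1, Tmem72, Abca4, Pomc, Pou1f1, Smim11, Rcan1 and Kcne1, and the pituitary list, were chosen after values were seen. Alternatives were DESeq2 1.42.0 size factors, total counts, spike-in scaling, the second table, other prior counts and minima, and each library alone. Reads of CAST/EiJ sequence were assigned on the reference genome, and alleles were not analysed here.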

Additional observations from a re-analysis of the deposited data

How the results depend on the processing

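Over 92 alternatives, 76 left the value within its limits. The limits were the SD of the 2 libraries for a level, a counting interval for a log2 difference and a set fold for a number of genes. With 2 libraries, leaving either out always keeps a level within that SD. Those alternatives could not have moved, so nothing is read from them. None of 35 member log2 differences changed sign, and 2 left their counting interval, both with spike-in scaling (Ttr -1.43 and Kl -0.38). The number of the 7 genes over 2-fold lower was 2, and 1 with spike-in scaling, 4 at a mean of at least 10 counts and 4 with no minimum. For the other choroid plexus genes it was 1, and 4 at 10 counts, 6 with no minimum and 3 at 20 counts, a minimum chosen after seeing the data. The mean Ttr level was 114 TPM, and 223 TPM when scaled over protein-coding genes only; with each replicate left out it was 55.7 to 172 TPM. Genes detected were 3, and 5 at 0.5 TPM, 1 at 5 TPM, and 4 to 5 with a replicate left out. The changes with the minimum come from the number of genes entered. With spike-in scaling the log2 difference of Prlr went from -1.17 to -0.90, which is under 2-fold. Why spike-in scaling differed from TMM was not tested. Folr1 and Kcne2 rest on 3 counts in replicate 2. No paired analysis was possible because both libraries belong to 1 group.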
